A study of Mus musculus with 13 samples.

Results

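Most of the energy of a cell comes from 5 protein complexes in the inner mitochondrial membrane. The genes described here mostly encode the nuclear-encoded subunits of complexes I, III and IV of the respiratory chain and of the ATP synthase, also called complex V. They were chosen by symbol alone: every gene whose symbol began with Nduf, Uqcr, Cox4 to Cox8 or Atp5. This gave 93 of the 18939 symbols with counts. Of these, 4 are annotated as processed pseudogenes (Cox6c2, Ndufa11b, Ndufs6b and Ndufb4c), and only Ndufb4c had enough counts to be tested. By symbol, 39 of the 93 were assigned to complex I, 8 to complex III, 21 to complex IV and 16 to complex V. A further 8 were complex I assembly factors, named Ndufaf, and 1 was Atp5s, coupling factor B, which is not a subunit. Ndufa4 and its paralog Ndufa4l2 were counted with complex IV, to which the Ndufa4 protein has been reassigned. Subunits encoded by the mitochondrial genome were not analysed here.

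Complexes I, III and IV pass electrons from NADH to oxygen and pump protons out of the mitochondrial matrix. Complex V lets the protons back in and makes ATP. Each complex needs a fixed set of subunits, some catalytic and many accessory, and most of them are encoded in the nucleus, translated in the cytoplasm and imported. Oocytes rely strongly on mitochondrial respiration and carry many mitochondria. Oocytes able to mature mostly stop transcription before they resume meiosis. Their mRNA pool is then set by mRNA storage, decay and the length of the poly(A) tail.

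RNA of 13 single oocytes was sequenced. They came from C57BL/6 females aged 3 to 4 weeks, primed with PMSG for 48 h. Every oocyte was injected with FBL–GFP mRNA, which marks the nucleolus, and with H2B-mCherry mRNA, which marks chromatin, and was held at the germinal vesicle (GV) stage with 10 µM Cilostamide, an inhibitor of phosphodiesterase 3, for 6 h. The FBL–GFP pattern then separated oocytes whose chromatin does not surround the nucleolus (NSN) from those in which it does (SN). In the paper's assay of new RNA, NSN GV oocytes were still transcribing, while SN GV oocytes made almost none. At the GV stage 3 oocytes of each type were sequenced, and at MII 4 of SN origin (SN-MII) and 3 of NSN origin (NSN-MII). MII oocytes had been released from the inhibitor, had matured in culture and were arrested at metaphase II. In the paper NSN oocytes extruded a polar body less often than SN oocytes. The NSN-MII oocytes thus represent only the part of the NSN oocytes that matured. No group was free of injection or of the inhibitor. Nothing in the sources says whether the oocytes of a group came from separate animals, so the p-values measure the spread between oocytes. The study asked how the mRNA of NSN and SN oocytes differs at each stage, and the layout also allows MII to be set against GV oocytes.

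Libraries were made by the SMART-seq2 protocol, which primes on poly(A) tails, and held between 7140416 and 8846287 counts. No spike-in RNA was used. Fewer mRNA molecules per oocyte, a shorter poly(A) tail and a smaller share of the library can therefore not be told apart. Levels are given as CPM (counts scaled to a common library size, with TMM factors) within a gene, and as FPKM, which divides by transcript length, between genes. All 12 oocyte markers were detected at both stages, with summed levels of 20998 to 28732 CPM at GV and 17883 to 24644 CPM at MII. The 15 markers of cumulus and granulosa cells summed to 61.5 to 93.6 CPM at GV and 99.1 to 189 CPM at MII, with Foxl2 and Ptx3 at 0 in all libraries. Most of the sum was Cyp19a1, with a median of 51.4 CPM at GV and 101 CPM at MII. Nr5a2 had 9.87 to 18.5 CPM at GV and 6.94 to 15.5 CPM at MII. Kitl went from a median of 3.65 CPM at GV to 11.7 CPM at MII. Cyp11a1, Has2, Inha, Inhba and Ptgs2 had at most 5.745 CPM in any library. Amh, Amhr2, Hsd17b1 and Tnfaip6 stayed at 0.749 CPM or less, and Fshr went from at most 2.25 CPM at GV to 0 at MII. The part of these markers in the results was not tested. The median departure of the members from their stage mean was largest in a pair of libraries. In NSN GV replicate 2, 83 of the 86 members tested were above their stage mean (median difference 0.60 on the log2 scale), and in NSN-MII replicate 3, 68 of 86 were below it (median -0.54). NSN-MII replicate 3 also had the fewest genes detected, 11593, against up to 13342 in other libraries. The median departure over the 682 tested genes with short transcripts, up to 1000 bases, had the same directions there, 0.46 and -0.26. The median departure of the members in the other libraries lay between -0.29 and 0.31. Members leaned to 1 side there too, with 80 of 86 below the mean in NSN GV replicate 1.

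Some promoters of the set share short sequences that regulators of mitochondrial genes are known to bind, and a few are shown. RefSeq promoters on GRCm38.p6, from 250 bases before to 50 bases after the start, were found for 71 of the 93 genes (76 promoters). Both strands were searched. The NRF1 motif, GCGCA followed by its reverse complement TGCGC and so the same on both strands, was in 7 of the 76 promoters (9.21%) and in 0.97% of all 32851 promoters. The YY1 motif AAGATGGC was in 10 (13.16%), against 2.75% of all. The ETS motif CCGGAAGT, bound by GABPA, was in 5 (6.58%, against 3.89%), and the ERR motif TCAAGGTCA in 1 (1.32%, against 0.42%). Matches of different motifs overlapped in 0 of the 76 promoters. The windows have 30 bases with the motif in capitals, first the NRF1 motif in 1 gene of each complex and then the YY1 motif in 4 genes with large differences between stages and in 1 with a small one.
Ndufa11, chr17:56717692-56717721, plus strand: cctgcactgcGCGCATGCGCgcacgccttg
Uqcrc1, chr9:108936668-108936697, plus strand: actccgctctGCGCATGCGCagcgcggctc
Cox6a1, chr5:115349101-115349130, minus strand: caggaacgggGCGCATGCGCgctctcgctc
Atp5g2, chr15:102671070-102671099, minus strand: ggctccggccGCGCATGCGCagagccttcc
Ndufa9, chr6:126849097-126849126, minus strand: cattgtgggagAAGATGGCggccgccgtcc
Ndufs7, chr10:80249462-80249491, plus strand: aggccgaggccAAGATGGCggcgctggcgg
Atp5j2, chr5:145191500-145191529, minus strand: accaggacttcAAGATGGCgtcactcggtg
Ndufc1, chr3:51408915-51408944, minus strand: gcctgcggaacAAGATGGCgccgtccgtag
Ndufb8, chr19:44555393-44555422, minus strand: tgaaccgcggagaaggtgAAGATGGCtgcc
All 10 YY1 matches read in the direction of the gene, and 9 of them began between 11 and 39 bases after the start. The exception was Atp5j, where the match began 88 bases before it. A match of letters is not a measurement of binding. The windows were chosen after the values of the genes were seen.

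The largest difference in the set was between stages. Of the 86 members tested, 78 had a lower level in MII than in GV oocytes and 5 a higher one at an adjusted p under 0.05 (edgeR's quasi-likelihood test, Benjamini-Hochberg adjustment over all genes). Over all 11375 genes tested, 68.6% were called, 31.7% higher and 36.9% lower. The median difference of the members, MII minus GV, was -2.93 on the log2 scale, against -0.10 over all genes. The 6 GV and 7 MII libraries did not overlap for 73 members, 69 of them lower and 4 higher, while 47.4% of all genes did not overlap, 26.5% lower and 20.9% higher. The 7 members not tested were near 0 throughout: Cox6c2, Cox7a1, Cox7b2, Cox8b, Cox8c, Ndufa11b and Ndufs6b. Without both libraries that stood apart, 79 of 87 members were called (73 lower and 6 higher), with a median of -2.55. Over all genes that fit called 65.4%, 30.1% higher and 35.4% lower, with a median of -0.10.

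The members have short mRNAs, and short mRNAs in general were lower at MII. Their median transcript was 773 bases long, against 3005 bases over all genes tested. All 682 genes tested with transcripts of up to 1000 bases had a median difference of -2.32, and the 5687 genes over 3000 bases one of 0.44. Among the members, the 54 with up to 1000 bases had a median of -2.93 and the 32 longer ones one of -3.02. A second fit first levelled each library along transcript length. In it 55 members were lower and 19 higher, with a median of -1.03 against 0.16 over all genes, of which 30.9% were lower and 36.0% higher. By annotated length, members of 1000 to 1500 bases had a median of -3.35, against -1.45 for all genes of that length. Those of 1500 to 2000 bases had -3.30, against -0.94. A single annotated transcript gave each length, and for some members it may be too long. Uqcrq (1521 bases) had 518 FPKM and 176 CPM in SN GV replicate 1, and Ndufab1 (3479 bases) 513 FPKM and 255 CPM. Over 1000 bases FPKM should be below CPM, as for Atp5a1 (2471 bases, 102 FPKM and 263 CPM). For members like Uqcrq the length classes and the fit levelled along length are uncertain. How far length itself plays a part was not tested.

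**Figure D1:**
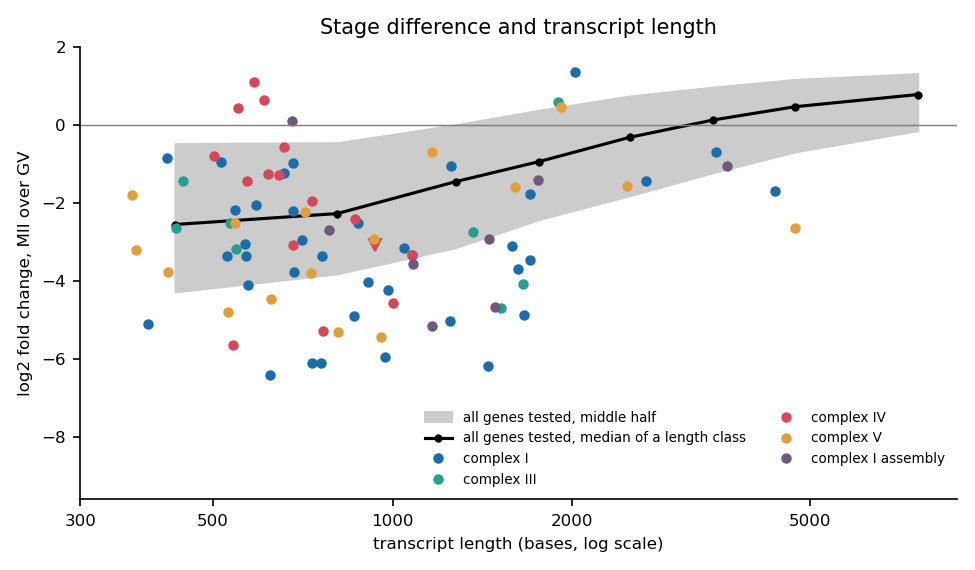
Difference between MII and GV oocytes (log2, MII minus GV) of the members against transcript length in bases on a log axis, with the middle 50% of all genes tested in each length class in grey, their median as a black line and Ndufa4l2 as a triangle at its bound. The grey band falls toward short transcripts. Members annotated with 1000 to 2000 bases lie lower than most genes of that length, with medians of -3.35 and -3.30 in the 2 classes. For some members the annotated length may be too long.

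The complexes differed in how far their mRNAs were down. Complex I had the lowest median, -3.35, with 35 of 37 tested genes lower and 1 higher, the pseudogene Ndufb4c among the lower ones (without it -3.25, with 34 of 36 lower). Complex V followed with -2.78 (15 of 16 lower, 1 higher), complex III with -2.70 (7 of 8 lower, 1 higher) and complex IV with -1.70 (13 of 16 lower, 2 higher), although the complex IV median turned to 0.40 in the fit levelled along length. The assembly factors of complex I had a median of -2.81, with 7 of 8 lower. In that fit the medians of complexes I, III and V were -1.47, -0.50 and -1.13. Each complex had at least 1 subunit that rose while the rest were mostly down.

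**Figure D2:**
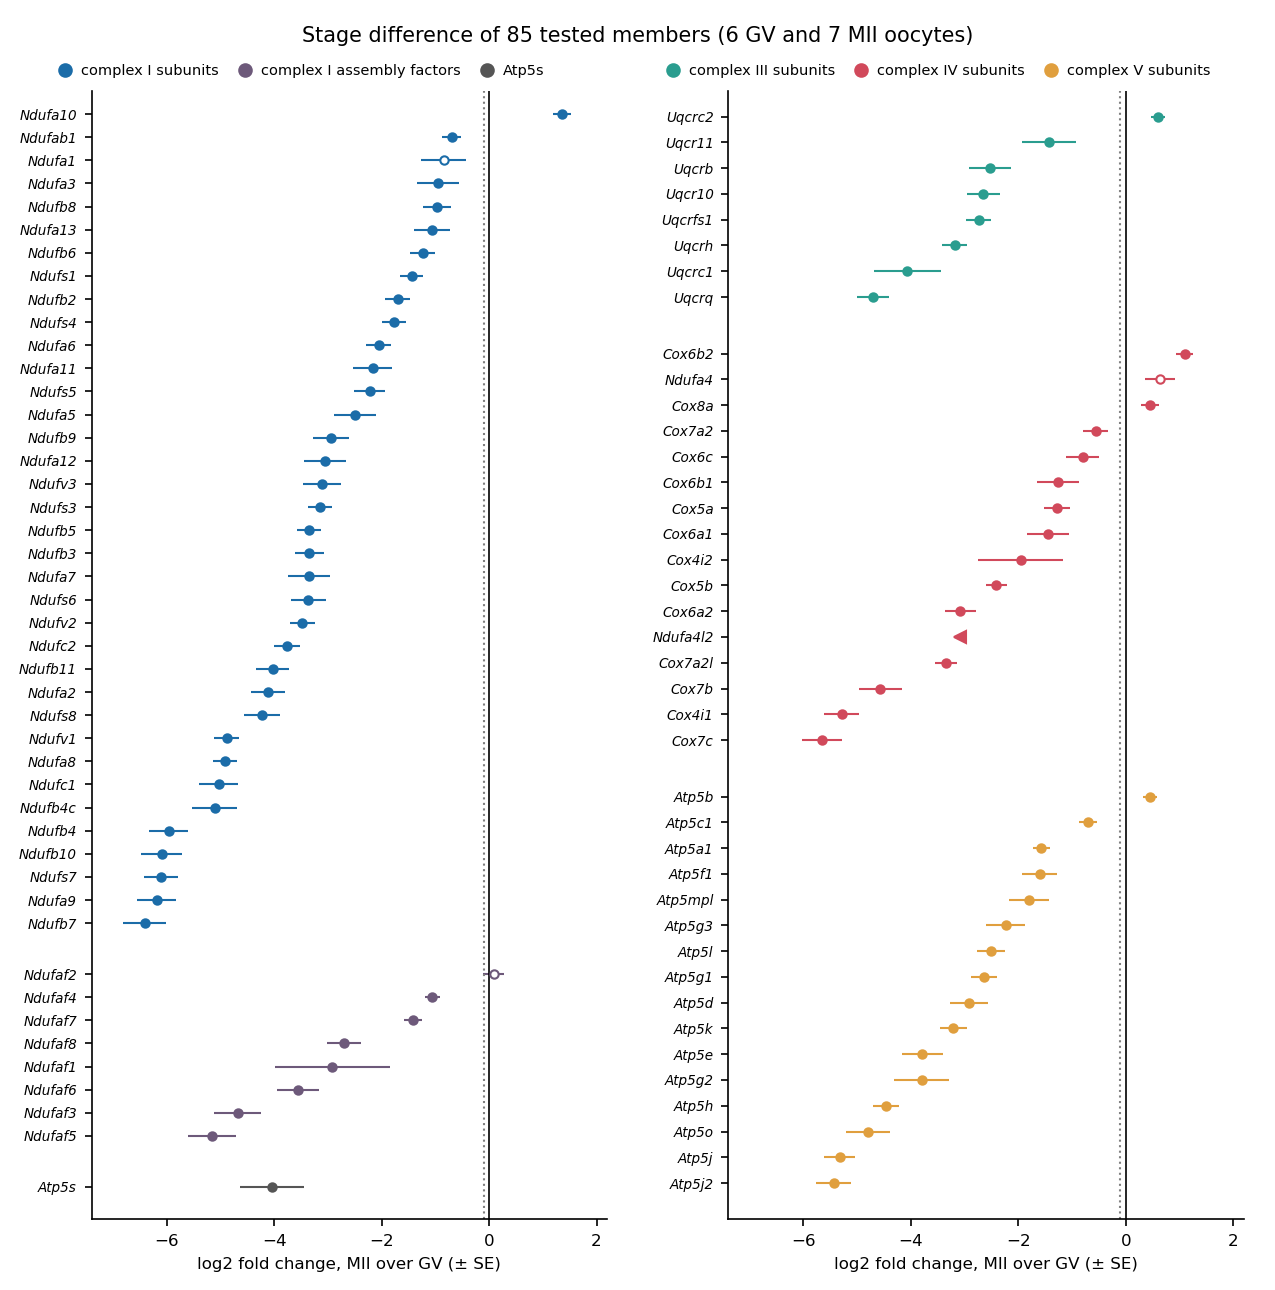
Difference between MII and GV oocytes (log2, MII minus GV, ± SE) for 85 members tested, by complex, with open symbols for an adjusted p of 0.05 or more, a triangle for Ndufa4l2 at its bound and a dotted line at the median of all genes. Most members lie below the line and 5 called members lie above it; when libraries were levelled along transcript length, 19 were called higher and the complex IV median turned positive.

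The summed CPM of every complex was lower in MII oocytes, least so for complex III in CPM and for complex IV in FPKM. Complex I summed to 2144 to 3822 CPM in GV oocytes and 658 to 799 CPM in MII oocytes, a ratio of stage means of 0.259. Complex III went from 619.5 to 1093 CPM at GV to 355 to 565 CPM at MII, a ratio of 0.631. Most of its MII sum was Uqcrc2, a subunit that rose, with 332 to 525 CPM. The ratio was 0.446 for complex IV and 0.406 for complex V. Atp5b, which also rose, had 527 to 710 CPM of a complex V sum of 804 to 1143 CPM at MII. In FPKM the ratios for complexes I, III, IV and V were 0.199, 0.244, 0.486 and 0.213. The set as a whole held 0.896% ± 0.113 of the counts in SN GV oocytes and 0.942% ± 0.284 in NSN GV oocytes (SD, n = 3 each). It held 0.290% ± 0.00880 in SN-MII (SD, n = 4) and 0.298% ± 0.0704 in NSN-MII oocytes (SD, n = 3).

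**Figure D3:**
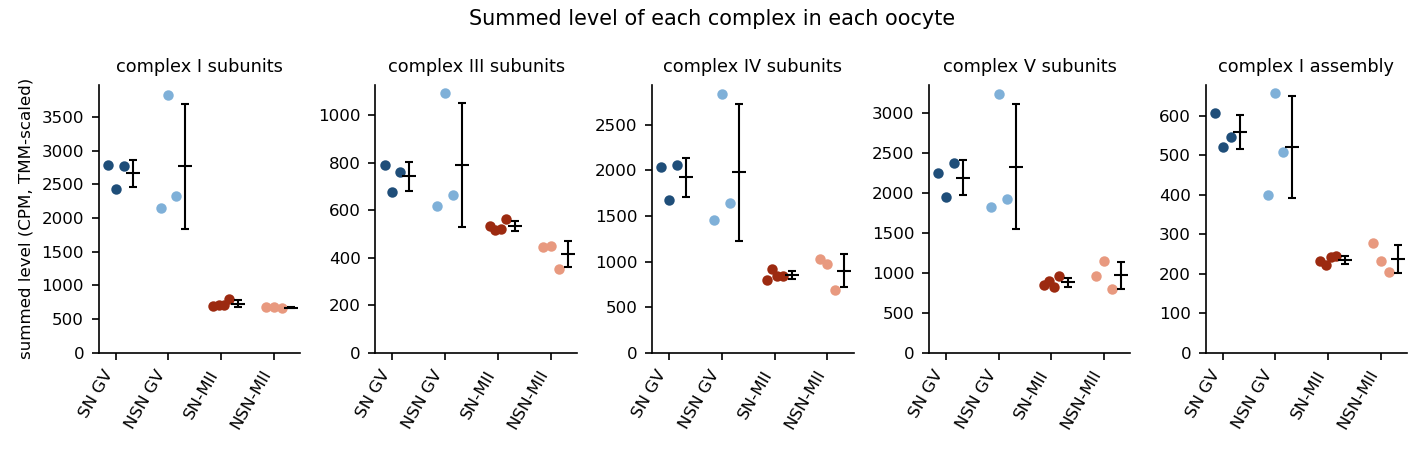
Summed CPM of complexes I, III, IV, V and the complex I assembly factors in each oocyte, with the mean ± SD of the SN GV, NSN GV, SN-MII and NSN-MII groups. No MII oocyte reached the level of a GV oocyte in any of the 5 panels, and the highest GV point in each panel is NSN GV replicate 2.

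In complex I, the catalytic arm was low at MII throughout. All 7 core subunits, which carry the flavin and the iron-sulfur clusters, fell. Ndufv1, the subunit that binds NADH, had 106, 130.4 and 151 CPM (lowest, median, highest) in GV oocytes and 2.23, 4.24 and 6.25 CPM in MII oocytes, a difference of -4.88 ± 0.23 (SE, adjusted p = 5.54e-11). Its stages did not overlap. Ndufs7, which holds the last iron-sulfur cluster before quinone and one of the YY1 matches above (gene at chr10:80249121-80256794), was one of the 3 largest falls. It had 56.4 to 94.4 CPM at GV and at most 1.69 CPM at MII (-6.11 ± 0.32, adjusted p = 1.09e-10). Ndufs1, the largest core subunit, fell least of the core, from 35.1, 42.8 and 46.3 CPM to 6.90, 17.9 and 23.9 CPM (-1.44 ± 0.22, adjusted p = 1.64e-05).

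The accessory subunits of complex I, which surround the core, held both extremes of the complex. Ndufb7, a subunit of the membrane arm at chr8:83566671-83571626, had 37.9, 48.5 and 77.9 CPM at GV and 0, 0.531 and 1.28 CPM at MII (-6.41 ± 0.40, adjusted p = 5.83e-10). Ndufa9, at the joint of the arms (chr6:126821721-126849136), had 126, 156 and 198 CPM at GV and 0, 2.57 and 3.55 CPM at MII (-6.19 ± 0.36, adjusted p = 2.77e-10). Neither gene came near its GV levels in any MII oocyte. Ndufa10, another accessory subunit (chr1:92439010-92473860) with a longer transcript of 2020 bases, against 1445 for Ndufa9, went the other way. Its levels were 83.2, 104 and 128 CPM at GV and 213, 240.3 and 365 CPM at MII, so that all MII oocytes were above all GV oocytes (1.35 ± 0.16, adjusted p = 1.73e-06). Per length, Ndufa10 made up 1.001 to 1.52% of the FPKM of complex I at GV and 10.7 to 27.8% at MII, highest in NSN-MII replicate 3.

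Few other complex I subunits came near Ndufa10. Ndufab1, the mitochondrial acyl carrier protein, had 151, 214 and 258 CPM at GV and 79.0, 141 and 218 CPM at MII, with overlap (-0.70 ± 0.18, adjusted p = 0.00265). Ndufa6 had 58.3, 69.5 and 120.0 CPM at GV and 8.78, 18.8 and 23.5 CPM at MII (-2.06 ± 0.23, adjusted p = 7.4e-07), but 0.22 and no call in the fit levelled along length. Ndufa3 fell by 0.95 ± 0.39 on the log2 scale (adjusted p = 0.0403), with overlapping stages, a call that held in 9 of 22 alternative settings. It was called 1.45 higher in the fit levelled along length. Ndufa1, the subunit not called, differed by -0.84 ± 0.42 (adjusted p = 0.0839). It was called 1.72 higher in that fit. Ndufb8 (-0.97) and Ndufb6 (-1.23) were called lower here and higher in that fit (1.13 and 0.95).

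In complex III, 1 core protein rose and the other subunits fell. Uqcrc2, core protein 2 (chr7:120635176-120659524), had 214, 279 and 311 CPM in GV oocytes and 332, 445 and 525 CPM in MII oocytes (0.60 ± 0.13, adjusted p = 0.000464). All MII oocytes were above all GV oocytes in CPM. In FPKM, NSN-MII replicate 3 (144) lay within the GV range of 133 to 161, and the other MII oocytes had 184 or more. Uqcrc2 made up 7.16 to 12.9% of the FPKM of complex III at GV and 39.0 to 76.1% at MII, highest in NSN-MII replicate 3. Its partner Uqcrc1, core protein 1, was at 2.37, 6.85 and 19.1 CPM at GV and 0, 0.514 and 1.67 CPM at MII (-4.07 ± 0.63, adjusted p = 2.2e-05). Per length, Uqcrc1 had 1.45 to 14.2 FPKM at GV and at most 1.01 FPKM at MII. The core proteins form a pair in the complex, and their mRNAs moved in opposite directions.

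The other subunits of complex III were lower at MII. Uqcrfs1, the Rieske iron-sulfur protein, had 63.4, 76.2 and 81.2 CPM at GV and 6.59, 8.15 and 19.8 CPM at MII (-2.74 ± 0.24, adjusted p = 3.36e-08). Uqcrq, a small subunit next to cytochrome b, had 118, 153 and 293 CPM at GV and 3.88, 4.86 and 9.52 CPM at MII (-4.71 ± 0.29, adjusted p = 6.49e-10). Uqcrh, the hinge protein, differed by -3.18 ± 0.24 (adjusted p = 4.91e-09) and had 85.0 to 181 CPM at GV and 6.42 to 16.2 CPM at MII. For these 3 genes no MII oocyte reached any GV oocyte. All 5 small subunits fell (median -2.65), though Uqcrb, which lies beside the quinone site (-2.53 ± 0.40, adjusted p = 2.72e-05) was not called in the fit levelled along length (-0.18) and 43.2% of its 50-base stretches occur in other transcripts. Uqcr10, a further small subunit, was not called in that fit either (-0.05), and Uqcr11, the smallest of the complex, was called 1.03 higher.

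Complex IV held 2 of the 5 members that rose, Cox8a and Cox6b2. Cox4i1, the ubiquitous subunit 4, had 233, 294 and 480.0 CPM in GV oocytes and 3.21, 8.36 and 14.4 CPM in MII oocytes (-5.29 ± 0.33, adjusted p = 6.36e-10). Cox7c, a small membrane subunit, had 118, 145 and 239.5 CPM at GV and 0.545, 3.32 and 5.94 CPM at MII (-5.65 ± 0.37, adjusted p = 1.14e-09). Both were apart between the stages in every oocyte. Cox8a, a short subunit like Cox7c (transcripts of 550 and 540 bases), had 111, 135 and 225 CPM at GV and 186, 197 and 238 CPM at MII. It was called higher (0.45 ± 0.16, adjusted p = 0.0235), with overlap through NSN GV replicate 2. The call for Cox8a was lost in 7 of 22 alternative settings. Per length, Cox8a had the highest mean level of the set at MII, 472 FPKM (406 to 598 in single oocytes), while at GV the highest was Atp5e with 1072 FPKM.

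**Figure D4:**
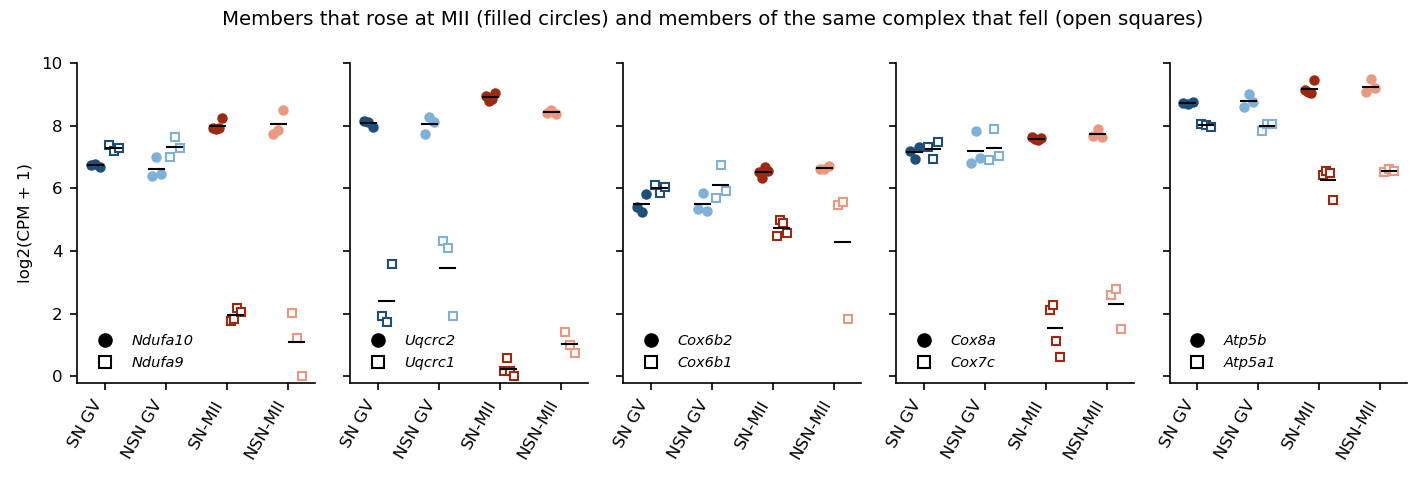
Level of the 5 members called higher at MII, each beside another subunit of its complex, as log2(CPM + 1) in each of the 13 oocytes, with bars at the group means. Ndufa10, Uqcrc2, Cox6b2 and Atp5b are higher in all 7 MII oocytes than in all 6 GV oocytes and Cox8a overlaps, while Ndufa9, Uqcrc1, Cox6b1, Cox7c and Atp5a1 are lower at MII; Cox6b1 turned to higher when libraries were levelled along transcript length.

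Subunit isoforms of complex IV shifted against each other. Cox6b2, the form of subunit 6b known from testis (chr7:4751792-4753094), had 36.9, 40.5 and 56.5 CPM in GV oocytes and 79.0, 97.4 and 105 CPM in MII oocytes, with no overlap (1.10 ± 0.16, adjusted p = 1.18e-05). Cox6b1, the ubiquitous form, had 50.3, 62.4 and 107 CPM at GV and 2.53, 28.7 and 46.1 CPM at MII (-1.26 ± 0.40, adjusted p = 0.00931), but was called 0.90 higher in the fit levelled along length. As a share of their FPKM, Cox6b2 was 39.7 to 55.1% in GV oocytes and 73.6 to 98.3% in MII oocytes, so the share was larger in every MII oocyte. The highest share was in NSN-MII replicate 3, and the next was 85.5% in SN-MII replicate 1. Both mRNAs are short, 585 and 618 bases. Cox6b1 was set beside Cox6b2 after the values were seen.

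Other isoform pairs did not share this pattern. Cox6a2, the heart and muscle form of subunit 6a, had 9.78, 18.03 and 19.8 CPM at GV and 1.24, 2.03 and 2.70 CPM at MII (-3.08 ± 0.29, adjusted p = 8.87e-08). Its ubiquitous partner Cox6a1 had 82.1, 95.4 and 159 CPM at GV and 3.38, 40.7 and 58.2 CPM at MII (-1.44 ± 0.39, adjusted p = 0.00365), but was called 0.80 higher in the fit levelled along length. Cox6a2 was 8.12 to 14.1% of the pair's FPKM at GV and 1.78 to 4.74% in 6 of the 7 MII oocytes. The exception was NSN-MII replicate 3, with 31.8%, where Cox6a1 was at its lowest. Cox4i2, the lung form of subunit 4, was at 4.73 CPM or less in every library. Cox7a1 was seen in 1 GV library at 0.237 CPM, and Cox8b had 0 counts in all libraries. Ndufa4l2 had 2.42 to 4.61 CPM at GV and 0 counts in all MII oocytes, at least 8.51-fold lower against a floor of 3 counts per library.

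Among the remaining subunits of complex IV, the direction of some depended on the fit. Cox5a, a matrix-side subunit next to Cox4i1, had 179, 256 and 332 CPM at GV and 65.9, 87.5 and 219 CPM at MII, with overlap through NSN-MII replicate 3 alone (-1.28 ± 0.24, adjusted p = 0.000196), and was called 1.07 higher in the fit levelled along length. Cox7a2, the ubiquitous form of subunit 7a, differed by -0.56 ± 0.23 (adjusted p = 0.0398), with overlap, a call that held in 12 of 22 alternative settings. It was called 1.61 higher in the fit levelled along length. Cox7a2l, counted with complex IV by its symbol, fell from 145 to 264 CPM at GV to 9.68 to 23.1 CPM at MII (-3.34 ± 0.21, adjusted p = 6.36e-10). Ndufa4 was the subunit not called, with 61.8, 76.6 and 126 CPM at GV and 37.3, 138 and 183 CPM at MII (0.63 ± 0.28, adjusted p = 0.0537). Its lowest MII value, again in NSN-MII replicate 3, was below all GV values, while the other 6 MII oocytes had 115 CPM or more. It was called 2.85 higher in the fit levelled along length.

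In complex V, the catalytic subunit and its partner in the F1 head parted. Atp5b, the catalytic beta subunit (chr10:128083273-128090391), had 388, 429 and 510.3 CPM in GV oocytes and 527, 559 and 710.0 CPM in MII oocytes (0.45 ± 0.13, adjusted p = 0.00507). All MII oocytes were above all GV oocytes, though the call was lost when libraries were scaled by their totals (0.16). Atp5a1, the alpha subunit that alternates with beta in the head, had 228, 262 and 266 CPM at GV and 48.5, 90.0 and 97.0 CPM at MII (-1.57 ± 0.15, adjusted p = 1.54e-07). Atp5b made up 5.72 to 10.7% of the FPKM of complex V at GV and 38.3 to 70.1% at MII, highest in NSN-MII replicate 3. The 5 genes of the F1 head had a median of -1.57, with 4 lower and 1 higher, but Atp5c1, the gamma subunit (-0.70), was called 0.78 higher in the fit levelled along length.

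All 8 stalk and membrane subunits of complex V were lower, with a median of -3.84. In the fit levelled along length their median was -1.39, with 5 lower, Atp5mpl called 0.89 higher, and Atp5f1 (-0.54) and Atp5l (-0.12) not called. Atp5j2, subunit f, had 130.5, 164 and 297 CPM at GV and 1.73, 3.81 and 7.74 CPM at MII (-5.44 ± 0.32, adjusted p = 3.83e-10). Atp5j, coupling factor 6, had 27.0, 32.4 and 66.2 CPM at GV and 0.642, 0.866 and 1.31 CPM at MII (-5.32 ± 0.29, adjusted p = 1.43e-10). Both carry the YY1 motif, and neither overlapped between stages. Atp5o, the stalk subunit OSCP that oligomycin sensitivity depends on, differed by -4.79 ± 0.41 (adjusted p = 2.84e-08). Its annotated gene model may be a readthrough, so its transcript length is uncertain. Atp5e, the epsilon subunit of the head, was the most abundant member per length at GV and had 179, 226 and 485 CPM there and 6.92, 12.6 and 43.1 CPM at MII (-3.79 ± 0.38, adjusted p = 1.81e-07).

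The proton-carrying c ring of complex V is made from 3 genes that encode the same mature protein, and all 3 fell (median -2.64). Atp5g1 had 88.9, 111 and 208 CPM at GV and 11.6, 20.6 and 27.2 CPM at MII (-2.64 ± 0.24, adjusted p = 7.65e-08). Its mean FPKM went from 231 at GV to 9.02 at MII, a larger fall. Over the alternative settings the difference ranged from -4.67 to -2.40, so its size depends on the measure. Stretches of Atp5g1 also occur in transcripts of 163 other genes. Atp5g2 had 21.9 to 45.8 CPM at GV and 0.169 to 4.83 CPM at MII (-3.80 ± 0.51, adjusted p = 4.83e-06). Atp5g3 had 6.07 to 11.5 CPM at GV and 0.844 to 2.97 CPM at MII (-2.23 ± 0.36, adjusted p = 4.13e-05), and was not called in the fit levelled along length. None of these 3 genes overlapped between stages. Reads of Atp5g2 could be shared with Gm10175, since 87.4% of its 50-base stretches occur in other transcripts, so its level is uncertain. The same holds for Ndufb4c, of which 100% are shared with Ndufb4, and for Atp5l, with 68.5%. The share was 63.0% for Atp5o, 53.8% for Ndufa12, 53.0% for Cox7c and 50.5% for Atp5h.

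The assembly factors of complex I, which build the complex and do not stay in it, mostly followed the subunits. Ndufaf5, which modifies Ndufs7, had 10.5, 12.4 and 16.6 CPM at GV and 0, 0.409 and 0.642 CPM at MII (-5.15 ± 0.45, adjusted p = 3.45e-08). Ndufaf3 had 25.2, 31.8 and 42.5 CPM at GV and 0, 1.54 and 2.26 CPM at MII (-4.68 ± 0.43, adjusted p = 7.09e-08). Ndufaf4, the partner of Ndufaf3, had 214, 326 and 388 CPM at GV and 140.3, 152 and 187 CPM at MII (-1.05 ± 0.15, adjusted p = 8.7e-06). Ndufaf6 differed by -3.56 ± 0.39 (adjusted p = 4.94e-07) and Ndufaf8 by -2.70 ± 0.31 (adjusted p = 9.27e-07). Ndufaf2 was not called, with 29.0, 36.4 and 55.7 CPM at GV and 32.9, 44.7 and 49.5 CPM at MII (0.09 ± 0.20, adjusted p = 0.701). It was called 2.26 higher in the fit levelled along length. Ndufaf1 had 4.496 CPM or less at GV and at most 3 counts in any MII library, and no fold is given.

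The 3′ ends were searched for a cytoplasmic polyadenylation element (CPE), a short sequence through which stored oocyte mRNAs are known to regain their poly(A) tails during maturation. The letters TTTTAT or TTTTAA were looked for in the last 100 bases of each 3′ UTR, or in all of a shorter one, on the sense strand. The median 3′ UTR was 162 bases in members and 977 bases over all genes, so the length searched was not equal. The letters were in 18 of 84 members with an annotated 3′ UTR (21.4%) and in 30.2% of all such genes. Over all genes, the median difference between stages was 0.58 with the element and -0.49 without it. Among the members it was -2.86 with it and -2.92 without it. The member that rose, Uqcrc2, is shown with 3 that fell, as windows of 30 bases at the 3′ end on GRCm38 (GENCODE M21), with the element in capitals.
Uqcrc2, chr7:120659439-120659468, plus strand: ttactggtggctTTTTAAaataaaaacaac
Ndufa8, chr2:36036326-36036355, minus strand: tttcctgtccattaaaaaTTTTAAaggaaa
Ndufaf3, chr9:108565540-108565569, minus strand: tttttcccaaacTTTTATtgaaaaattcaa
Cox6b1, chr7:30616874-30616903, minus strand: tatctttcttgtTTTTAAaatgaagggtag
The differences of these genes were 0.60, -4.91, -4.68 and -1.26 in this order, so the element was present in members that fell and in 1 that rose. Cox6b1, however, was higher in the fit levelled along length. The windows were chosen after the values were seen.

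The promoter motifs were set beside the stage difference in the same way. The 7 tested members with the NRF1 motif had a median of -3.21 and the 61 with a promoter but without it one of -2.92. The 10 members with the YY1 motif had a median of -4.20, with values from -6.19 for Ndufa9 to -0.95 for Ndufa3, and the 58 without it one of -2.83. Over all genes tested the medians with and without the YY1 motif were -0.21 and -0.09, and those with and without the NRF1 motif -0.04 and -0.10. These are descriptions, and the shown promoter of Ndufb8 belongs to a gene with a difference of only -0.97, which was called 1.13 higher in the fit levelled along length.

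Maturation had a like pattern in SN and NSN oocytes. From SN GV to SN-MII, 72 of 86 members were lower and 4 higher, against 31.2% and 25.1% of all genes (56.3% in all). From NSN GV to NSN-MII, 68 were lower and 3 higher, against 30.8% and 25.4% of all genes (56.3% in all). The medians of complexes I, III, IV and V were -3.30, -2.81, -2.01 and -2.70 in SN and -3.10, -2.57, -1.37 and -2.86 in NSN oocytes. The interaction of type and stage tests whether the differences themselves differ. No member was called in it (0.0176% of all genes), none had an unadjusted p under 0.05 by edgeR (5.33% of all genes), and 1 did by DESeq2, which also called none. Ndufs1 had the smallest p, with a difference of -0.89 between the NSN and the SN change (unadjusted p = 0.0547, adjusted p = 0.944, edgeR). With these few oocytes a missing call does not show that the changes were alike.

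NSN and SN oocytes were then compared within each stage, the contrast the groups were sorted for. In GV oocytes, 0 of 86 members were called by edgeR (0% of 10839 genes), and also 0 by DESeq2 and by limma. An unadjusted p under 0.05 was reached by 1 member with edgeR (1.75% of all genes) and 1 with DESeq2, and 1 member did not overlap between the groups (6.03% of all genes). The median difference, NSN minus SN, was 0.08 on the log2 scale over the members and 0.01 over all genes. It was 0.06, 0.14, 0.06 and 0.11 for complexes I, III, IV and V. Leaving out 1 oocyte changed the sign of each, with ranges of -0.23 to 0.20, -0.17 to 0.33, -0.28 to 0.13 and -0.26 to 0.30. The member with a small p was Cox4i2, with 2.81, 4.73 and 2.39 CPM in SN GV oocytes and 0.421, 1.62 and 0.632 CPM in NSN GV oocytes (-1.88 ± 0.69, unadjusted p = 0.0235, edgeR). Every NSN GV oocyte was below every SN GV oocyte, at levels of few counts.

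The core and catalytic subunits differed little between NSN and SN GV oocytes beside their errors, and none was called. The difference was -0.13 ± 0.22 for Cox5a, 0.15 ± 0.20 for Ndufs1 and 0.15 ± 0.25 for Cox4i1. Ndufs1 had 39.9, 45.2 and 35.1 CPM in SN GV and 41.2, 46.3 and 44.4 CPM in NSN GV oocytes. Atp5b had 425, 416 and 434 CPM in SN GV and 388, 510.3 and 434 CPM in NSN GV oocytes. Their values were mixed between the groups. Uqcrc1 had the largest difference upward, 1.27, with 2.81, 2.37 and 10.9 CPM in SN GV and 19.1, 16.2 and 2.78 CPM in NSN GV oocytes, so that single oocytes of either group were high or low. Among complexes I and V and the assembly factors, the smallest p belonged to Ndufa3 (0.57 ± 0.41), Atp5j (0.38 ± 0.33) and Ndufaf4 (-0.17 ± 0.20), each with an adjusted p of 0.99997 by edgeR.

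In MII oocytes, 0 of 75 members tested were called by edgeR (0.259% of 10028 genes), and also 0 by DESeq2 and limma. An unadjusted p under 0.05 was reached by 3 members with edgeR (9.38% of all genes) and 3 with DESeq2, and 1 member did not overlap (10.2% of all genes). The median difference, NSN minus SN, was 0.07 over the members. It was 0.00, 0.34, 0.13 and 0.22 for complexes I, III, IV and V. With 1 oocyte left out, those of complexes I, III and IV reached -0.41, -0.06 and -0.11, and that of complex V stayed at 0.02 or more. Uqcrc2, the subunit that rose with maturation, had 491, 445, 464 and 525 CPM in SN-MII oocytes and 341, 362 and 332 CPM in NSN-MII oocytes (-0.48 ± 0.14, unadjusted p = 0.00500, adjusted p = 0.225, edgeR). Every NSN-MII oocyte was below every SN-MII oocyte, and in CPM all were above the GV oocytes. In FPKM, NSN-MII replicate 3 lay within the GV range. Ndufab1 had 168, 129, 141 and 218 CPM in SN-MII and 79.0, 95.8 and 141 CPM in NSN-MII oocytes (-0.65 ± 0.23, adjusted p = 0.366). Ndufs1 had 15.8, 17.9, 23.9 and 22.6 CPM in SN-MII and 6.90, 10.9 and 18.1 CPM in NSN-MII oocytes (-0.76 ± 0.34, adjusted p = 0.521). In both genes the lowest values were in NSN-MII oocytes and the groups overlapped. The core and catalytic subunits of the other complexes had wider errors at MII, such as 0.69 ± 0.41 for Uqcrfs1, 0.36 ± 0.34 for Cox5a and 0.25 ± 0.23 for Atp5a1. Atp5e had the smallest p of complex V (0.91 ± 0.52, adjusted p = 0.646) and Cox7c that of complex IV (0.96 ± 0.71, adjusted p = 0.749).

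A single library decided the comparison at MII for 2 members. Without NSN-MII replicate 3, Atp5f1, subunit b of the stalk of complex V, was called higher in NSN-MII oocytes (0.99 ± 0.23, adjusted p = 0.0437), and so was Uqcr11, the smallest subunit of complex III (1.55 ± 0.34, adjusted p = 0.0379). That fit called 2.24% of all genes. Atp5f1 had 31.98, 35.7, 37.6 and 29.99 CPM in SN-MII oocytes and 52.5, 81.2 and 8.61 CPM in NSN-MII oocytes. Uqcr11 had 12.5, 16.1, 11.4 and 6.27 CPM in SN-MII and 41.1, 26.5 and 0.338 CPM in NSN-MII oocytes. In both genes NSN-MII replicates 1 and 2 were above, and replicate 3 below, all SN-MII oocytes.

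**Figure D5:**
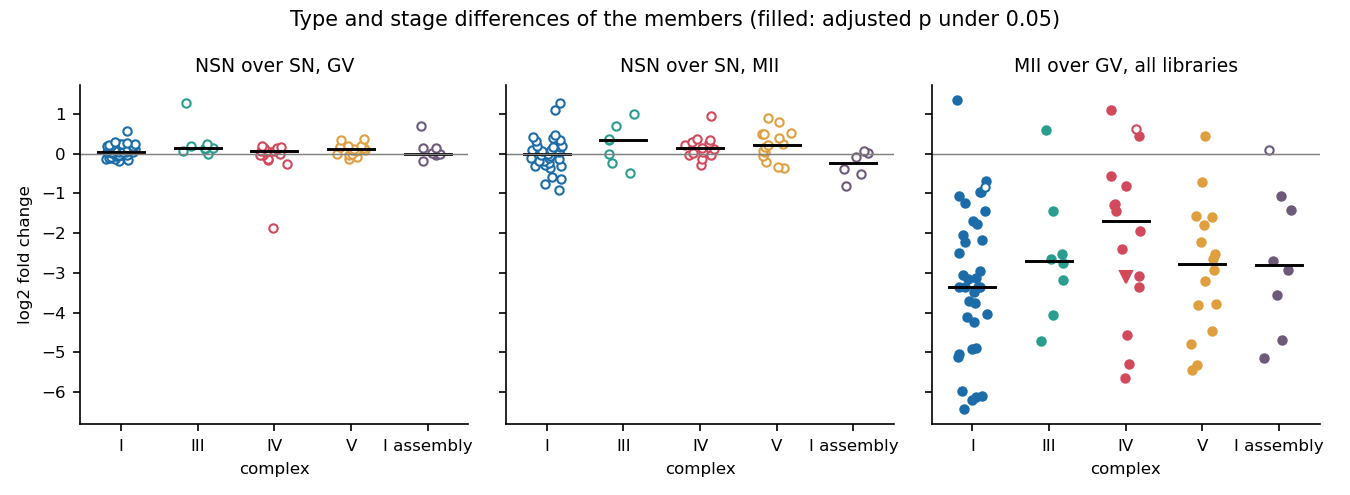
Differences (log2) of the members of each complex in the comparisons NSN minus SN at GV, NSN minus SN at MII, and MII minus GV. The differences between NSN and SN oocytes lie around 0, with medians between 0.00 and 0.34 for complexes I, III, IV and V, while most differences between stages lie below it; the complex IV median of the stage comparison turned positive when libraries were levelled along transcript length.

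Other genes of the pathway moved between stages in a similar way. In complex II, which feeds electrons from succinate into the chain, Sdhb, Sdhc and Sdhd fell and Sdha rose, also in the fit levelled along length. Sdha, the flavoprotein and largest subunit, had 179, 186 and 206 CPM at GV and 239.3, 313 and 436 CPM at MII, without overlap (0.74, adjusted p = 3.57e-04). Sdhb, its iron-sulfur partner, had 48.4 to 87.7 CPM at GV and 0.507 to 7.92 CPM at MII (-4.47). Cytochrome c (Cycs, -1.71) and cytochrome c1 (Cyc1, -3.55) were lower, as was the testis form Cyct (-1.70), which had 0.45 and no call in the fit levelled along length. Atpif1, the inhibitor of the ATP synthase, was lower by -3.88, and Usmg5, a small subunit of it, by -3.94. Of 34 tested assembly factors outside the symbol rule, 24 were lower and 2 higher (median -1.73), and 18 lower and 5 higher in the fit levelled along length. Cox17, a copper chaperone of complex IV, was among them with -5.28.

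Ribosomal protein genes, another set of short mRNAs, were mostly lower as well. Of 78 mitochondrial ribosomal protein genes, 64 were lower and 3 higher, with a median of -2.61. Of 88 tested cytosolic ones, 83 were lower and 1 higher, with a median of -3.84, which is below that of each respiratory complex. In the fit levelled along length, 49 mitochondrial ones were lower and 13 higher, and 68 cytosolic ones lower and 11 higher. The regulators of mitochondrial genes were mixed, with 4 of 10 tested higher, 3 lower and a median of 0.30 (0.00 with library totals). Nrf1, whose motif is shown above, had 222, 263 and 293 CPM at GV and 53.7, 96.7 and 118 CPM at MII (-1.51). Tfam, which packages and transcribes mitochondrial DNA, was lower by -3.16, while Tfb2m, a mitochondrial transcription factor, was 1.54 higher and Ppargc1b, a coactivator, 0.98 higher. Yy1 was at 3.095 CPM or less in every library and was not called, and Esrra had 0 counts in all libraries. Between NSN and SN oocytes no gene of these lists was called by edgeR at either stage.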

How the data were processed

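Single-oocyte cDNA was amplified by SMART-seq2 and made into libraries with Tn5. Per the labels and the submitters' processing notes, which list Trim Galore 0.4.4, Bowtie2 2.3.5, RSEM 1.2.28, DESeq2 1.20.0 and mm10, the authors trimmed and aligned the reads and quantified genes. The authors deposited RSEM expected counts in a table for each stage, and FPKM, counts per transcript length and depth, in another. RSEM shares reads among similar genes, and no molecular identifiers or strand step were named.

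Counts were rounded, filtered with filterByExpr, scaled by TMM and tested with edgeR 4.0.16 (R 4.3.3). Oocyte types were tested apart at GV and at MII, and stages in 1 fit of 13 libraries with a coefficient per group. An adjusted p under 0.05 over all genes tested was a call. The common biological coefficient of variation was 0.364. On simulated data the stage fit called 96 of 100 genes changed 4-fold, 46 of 100 changed 2-fold and 6 unchanged genes among 11375. At GV it called 86, 16 and 4 among 10839 genes, and at MII 85, 9 and 5 among 10028.

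Alternatives were DESeq2 1.42.0, its size factors, library totals, no filter, the replicate number as a block, limma 3.58.1 on log2(FPKM + 1) or log2(FPKM + 0.1) with a mean FPKM of at least 1, a fold minimum of 1.5, offsets levelling each library along transcript length (lowess, span 0.3) and leaving out each library. Leaving out a pair of libraries, and sums by FPKM or library totals, were chosen after seeing the data. Named genes were the 3 largest rises and falls per complex, the 2 smallest p between oocyte types, core subunits and isoforms, and the smallest p of the interaction, 43 in all. Ndufa1, Ndufa4, Cox6b1, Cox7a2l, Ndufaf1, Ndufaf2, Atp5f1, Uqcr11, Ndufa8 and the genes in the sequence windows were added after their values were seen. The members and lists were chosen with earlier results of these data known. Single values of 1 member are not reported here. Floors and counting error cover the count alone.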

Additional observations from a re-analysis of the deposited data

Results flagged for a closer look

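Among the 43 named genes and 5 sums, the 4 SN-MII oocytes were checked for a value far from the other 3, as the gap to the nearest divided by the range (Dixon's ratio). Chance alone marks about 1 in 20. The ratio was 0.930 for Ndufa10, with 303 CPM in replicate 4 against 236 to 240.3 CPM in the others. It was 0.872 for the complex I sum, with 799 CPM in replicate 4 against 695 to 708 CPM, and 0.920 for Cox5a, with 105 CPM in replicate 4 against 86.6 to 88.1 CPM. In replicate 2 it was 0.889 for Uqcrq, with 8.73 CPM against 4.38 to 4.86 CPM, 0.899 for Ndufs7, with 1.54 CPM against 0.265 to 0.394 CPM, and 0.935 for Atp5k, with 6.17 CPM against 7.23 to 7.30 CPM.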

How the results depend on the processing

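The count of members called between stages stayed within 74 to 84 over the alternatives, and 55 of the 78 lower and 3 of the 5 higher calls held in all 22. Levelling libraries along transcript length moved most: the medians over all, SN and NSN oocytes became -1.47, -1.66 and -1.43 for complex I, -0.50, -0.51 and -0.49 for complex III, 0.40, -0.039 and 0.84 for complex IV, -1.13, -1.20 and -0.83 for complex V and -1.36, -1.42 and -1.24 for assembly factors. Under it Cox5a (1.07), Cox6a1 (0.80), Cox6b1 (0.90), Cox7a2 (1.61), Ndufa1 (1.72), Ndufa3 (1.45) and Ndufa6 (0.22) turned positive. Of all 78 lower calls, 14 turned positive and 11 of these were called higher, among them Cox6c, Ndufb6, Ndufb8, Uqcr11, Atp5mpl and Atp5c1. The cause was not tested. Without both libraries that stood apart, 2 members were called between oocyte types at MII, with 2.24% of all genes called. The stage medians were then -2.95 for complex I (-2.60 in NSN), -1.97 for complex III in NSN, -2.48 for complex IV in SN, -2.32 for complex V in NSN and -2.10 for assembly factors (-1.69 in NSN), with -0.24 and 0.063 for assembly factors between types at GV and MII. By limma on log2(FPKM + 1), medians were -0.16 for complex III between types at MII, -2.13 for complex IV and -3.39 for complex V in NSN, and -2.47, -2.30 and -2.64 for assembly factors over all, SN and NSN. Library totals gave -3.08 for assembly factors (-3.04 in SN) and moved the median of all genes from -0.10 to -0.39, with 24.1% called higher and 41.5% lower. The MII to GV ratio of sums was 0.292 by FPKM and 0.319 by library totals for all members, 0.199 and 0.211 for complex I, 0.244 and 0.515 for complex III, 0.213 and 0.333 for complex V, and 0.359 by library totals for assembly factors. Leaving out 1 library gave assembly factor medians of -3.14 to -2.01 over all, -3.35 to -1.97 in NSN, -3.01 to -1.81 in SN, -0.24 to 0.10 between types at GV and -0.32 to 0.063 at MII, a complex I median of -0.41 to 0.21 between types at MII, a complex IV median of -2.49 to -1.92 in SN, and 0 to 2 members called between types at MII. Replicate numbers did not pair the oocytes (same-number correlations -0.47 to 0.11). With the replicate block 79 of 86 members were called between stages, 71 in SN, 70 in NSN and 0 between types and in the interaction. The main fit called 68.6%, 56.3% and 56.3% of all genes in these stage comparisons. With 3 or 4 oocytes a group, differences between types of about 2-fold were mostly beyond detection, as in the simulated data.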

Other observations

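The 5 members that rose had a median annotated transcript length of 1896 bases and the 78 that fell one of 795 bases. Per length, Cox8a and Cox6b2 together made up 12.1 to 13.7% of the FPKM of complex IV in GV oocytes. In MII oocytes they made up 32.002 to 50.7%, highest in NSN-MII replicate 3.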
